A study of Arabidopsis thaliana with 4 samples.

Results

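The cellulose synthase genes CESA1 (AT4G32410), CESA2 (AT4G39350), CESA3 (AT5G05170), CESA5 (AT5G09870) and CESA6 (AT5G64740) were followed at nucleotide resolution through the SHAPE reactivity of their nuclear pre-mRNA. Every row of the 4 deposited tables whose identifier begins with any of these genes was taken. That gave 67 of 34255 splicing rows in the deproteinized condition and 2 of 24782 in vivo, together with 0 of 1068 poly(A) windows in the deproteinized condition and 7 of 6605 in vivo. The genes were thus measured almost wholly in deproteinized RNA at their introns and only in vivo at their poly(A) sites.

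The RNA came from nuclei of 5-day-old Arabidopsis Col-0 seedlings, whole plants with no cell types separated, entered as 4 samples. Deproteinized (+)SHAPE RNA met the SHAPE reagent NAI at 100 mM after nuclei had been lysed and protein removed, and deproteinized (−)SHAPE RNA met none. In vivo (+)SHAPE seedlings were treated with NAI at 100 mM while intact, and in vivo (−)SHAPE seedlings received none. The authors merged 2 biological replicates and combined the (+) and (−)SHAPE data of a condition, so that each condition was 1 profile. Introns and nucleotides are not replicates of a condition. No test between conditions, genes or introns could therefore be run, and counts and medians are given beside the same measure over all introns.

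Cellulose synthases are membrane enzymes that polymerize glucose from UDP-glucose into the glucan chains of cellulose. In primary walls of growing tissue the synthase complex needs 3 kinds of subunit, namely CESA1, CESA3 and a member of the CESA6 class, to which CESA2 and CESA5 belong and whose members can partly replace each other. NAI acylates the 2′-hydroxyl of flexible nucleotides, so a high reactivity marks a nucleotide that is mostly unpaired and accessible, and a low reactivity a nucleotide that is paired or covered. The 5′ splice site (5′ss) is the exon end that U1 snRNA pairs with, and the last exon nucleotides before it are called −2 and −1 here.

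A splicing row holds an intron with 50 nt of exon on each side. Reactivity was scaled within the row from 0 to 1, and a median of 5.26% of nucleotides in CESA rows had the top score and 5.26% had a score of 0. A reactivity of 1 thus says that the nucleotide was among the most reactive of its own row, and levels are relative to that row. Further, an intermediate score recurred within every CESA row, at a median of 15.6% of nucleotides in the deproteinized condition. Over all rows of that condition the median was 26.5% and the lowest share 0.038%. What the recurring score stands for is not given in the sources used here, nor is the read depth behind a row.

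Exon ends at homologous introns are shown for the positions at which the 5 genes read nearly alike and the reactivity did not. Each sequence gives 13 nt of exon and 13 nt of intron, 5′ to 3′, from TAIR10.1 as RefSeq provides it, with −2 and −1 in capitals. Positions are numbered in gene order and are defined below.
CESA1 intron 7, position 7 (chr4:15643543-15643568, minus strand): acgagctatgaAGgtcatttgaaaag
CESA2 intron 6, position 7 (chr4:18299321-18299346, plus strand): tcgtgctatgaAGgttttctttgctg
CESA3 intron 8, position 7 (chr5:1533055-1533080, minus strand): tagagctatgaAGgtaagtttgtagt
CESA5 intron 6, position 7 (chr5:3075388-3075413, plus strand): ccgagccatgaAGgtttgtttattct
CESA6 intron 6, position 7 (chr5:25883643-25883668, plus strand): gcgagccatgaAGgttactagttctt
CESA1 intron 8, position 8 (chr4:15643327-15643352, minus strand): tggaatgatacAGgtacagtgtggca
CESA2 intron 7, position 8 (chr4:18299557-18299582, plus strand): tggaatgattcAGgtaatgatgagtt
CESA3 intron 9, position 8 (chr5:1532837-1532862, minus strand): aggaatgatccAGgtaagaaattggt
CESA5 intron 7, position 8 (chr5:3075614-3075639, plus strand): tggcatgatccAGgtgagatgctttg
CESA6 intron 7, position 8 (chr5:25883968-25883993, plus strand): tggcatgattcAGgtgagtttcaaat
CESA1 intron 12, position 13 (chr4:15642101-15642126, minus strand): atggggcaaagAGgtcagttttcaaa
CESA2 intron 11, position 13 (chr4:18300776-18300801, plus strand): atggggaaaagAGgtagaaaacatta
CESA3 intron 13, position 13 (chr5:1531575-1531600, minus strand): ttggggaatggAGgtataatctcatt
CESA5 intron 11, position 13 (chr5:3076794-3076819, plus strand): atggggaaaagAGgtaatgtagagct
CESA6 intron 11, position 13 (chr5:25885146-25885171, plus strand): atggggaaaagAGgtaagcagccggt

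In the deproteinized table CESA1, CESA2, CESA3 and CESA5 had 14 rows each and CESA6 had 11. They covered 62 of the 63 introns that TAIR10.1 annotates in the 5 genes, the intron without a row being CESA6 intron 10. The other 5 rows matched no annotated intron. A CESA1 row (intron chr4:15646378-15646634) and a CESA2 row (intron chr4:18298735-18298824) lay inside annotated exons, and 3 rows used an alternative splice site of an annotated intron. The 67 rows had 65 distinct 5′ss, and where rows shared a 5′ss the row with the shorter intron was used. CESA introns were 77 to 527 nt long with a median of 96 nt. The in vivo table held CESA1 intron 7 and CESA2 intron 7, and no row of CESA3, CESA5 or CESA6.

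Within 20 nt of the splice sites, the nucleotide before the 5′ss was the most reactive point of the mean CESA profile in deproteinized RNA. At −1, reactivity averaged 0.668 ± 0.316 (SD over 65 sites) in CESA introns and 0.586 ± 0.364 over all 29979 sites with a value, with medians of 0.709 and 0.586. At −2 the median was 0.345 in CESA introns and 0.372 over all introns, so CESA introns were above all introns at −1 and below them at −2. Of the 65 CESA sites, 39 (60%) had a reactivity of at least 0.6 at −1, called high here, and 49.2% of all sites did. The −1 nucleotide was above the mean of its own flanks (−20 to −3 and +1 to +20) at 54 of 65 CESA sites (83.1%) and at 67.3% of all sites.

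The 2 ends of the scale at −1 were counted as well. The top score of the row stood at −1 in 21 of 65 CESA introns (32.3%) and in 31.1% of all introns, which is close to the background. A score of 0 stood there in 3 CESA introns (4.62%) and in 9.14% of all introns. A count of 3 is too small for this share to be set against that of all introns. The lowest-scoring sites were CESA1 intron 1, CESA2 intron 2 and CESA2 intron 7.

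**Figure D1:**
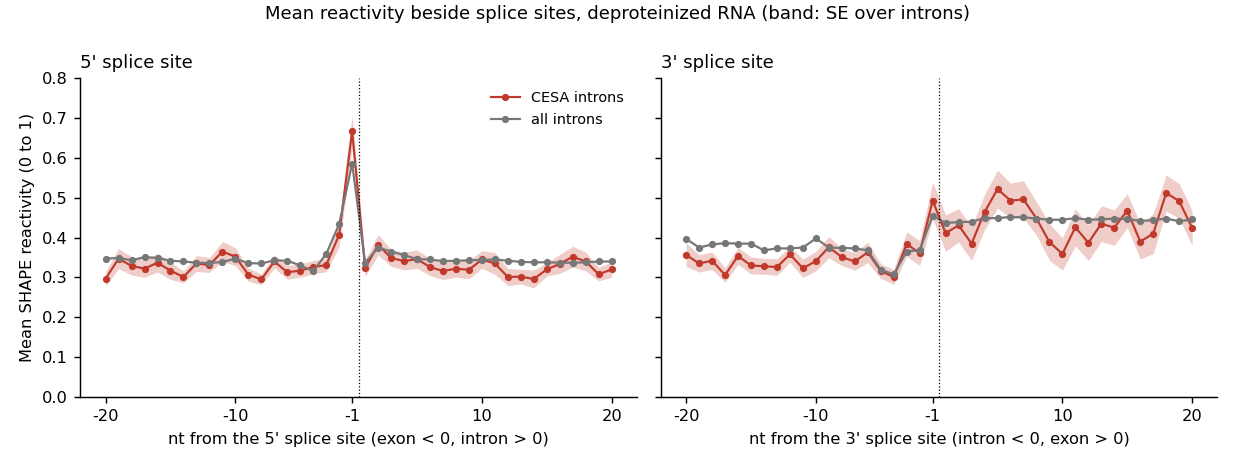
Mean SHAPE reactivity (y axis, 0 to 1) by nucleotide from the 5′ss (left) and the 3′ss (right) in deproteinized RNA, for CESA introns (red) and all introns (grey). Bands show the standard error over introns, which are not replicates; the CESA line reaches 0.668 at −1 of the 5′ss, against 0.586 for all introns.

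The genes were unequal at −1. In CESA1, which the primary wall complex cannot do without, 9 of 14 sites were high with a median of 0.907. In CESA3, its equally required partner, 7 of 14 were high with a median of 0.723. In the CESA6 class, CESA2 had 5 of 13 high sites and a median of 0.501, CESA5 had 8 of 13 and a median of 0.65, and CESA6 had 10 of 11 and a median of 1. CESA2 (38.5%) lay below the background of all sites and CESA6 (90.9%) far above it. Without CESA6 the share of high sites in the other 4 genes was 53.7% (29 of 54), which is nearer to the background of 49.2%. Leaving out any other gene gave 58.8% to 65.4%. The share above the flanks stayed between 79.6% and 86.5% whichever gene was left out.

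The share of the recurring score differed between genes as well, and was lowest in CESA6 and CESA1, which had the largest shares of high sites. It was highest in CESA5, which had a larger share of high sites than CESA2 and CESA3. The recurring score took a median of 12.9% of nucleotides in CESA1 rows, 14.7% in CESA3, 21.2% in CESA2, 26.1% in CESA5 and 12.3% in CESA6. In introns where it took under 20% of the row, 28 of 41 CESA sites were high (68.3%), against 51.8% of 8345 sites among all introns. In introns where it took 20% or more, 11 of 24 CESA sites were high (45.8%), against 48.2% of 21634 sites. Among these 24, 8 of 19 were high at 20% to 30% (42.1%) and 3 of 5 at 30% or more (60%). Its part in the difference between the CESA genes and all introns was not tested further.

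The base at −1 and the match to the splice-site consensus were also described. G stood at −1 in 48 CESA introns, and 27 of these were high (56.2%), against 50.7% for all introns with G. Another base stood there in 17 CESA introns, of which 12 were high (70.6%), against 44.5% for all introns without G. The 8 nucleotides from −2 on were compared with AG before GUAAGU, the sequence complementary to U1 snRNA. With 7 or 8 matches, 7 of 15 CESA sites were high (46.7%) and 50.3% of all sites were. With 6 matches 17 of 26 CESA sites were high (65.4%), against 52.4% of all, and with 5 or fewer 15 of 24 were (62.5%), against 46.2% of all. The best-matched CESA sites lay nearest to the background.

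Introns of different genes were taken as homologous when they lay at the same place in an alignment of the 5 proteins and in the same codon phase. The proteins were 64.2% to 91.8% identical, with CESA5 and CESA6 the closest pair. There were 14 intron positions, of which 9 had a row in all 5 genes, 3 in 4 genes and 1 in 3 genes. The 60 introns of these 13 positions make up the comparison. Position 11 was held only by CESA3 intron 12, which had 0.594 at −1 and lies 2 alignment columns from position 12. It has the codon phase of position 12, where CESA3 has no intron, so only the limit of 1 column sets it apart. CESA3 intron 1 is in the 5′UTR, had a reactivity of 1 at −1 and has no counterpart in the other genes.

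No position was high at −1 in every gene, and none was low in every gene. The lowest and highest −1 reactivity of a position differed by more than 0.5 at 12 of 13 positions. The exception was position 10, where CESA1, CESA3 and CESA6 had 1, CESA5 0.643 and CESA2 0.559. Here all 5 exons ended in AU.

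Position 1 is the first intron within the coding sequence, and the longest intron of each of the 5 genes, from 172 nt in CESA3 to 527 nt in CESA1. At −1 it had 1 in CESA3, CESA5 and CESA6 and 0.786 in CESA2, but 0 in CESA1. At −2 it had 1 in CESA3 and CESA6, 0.834 in CESA5, 0.61 in CESA2 and 0.214 in CESA1. CESA1 was the low gene at both nucleotides, and this position held more high −2 reactivities (4) than any other of the 13.

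At position 2, −1 was 0.977 in CESA6, 0.63 in CESA1, 0.42 in CESA5 and 0.33 in CESA3, while −2 stayed between 0.108 and 0.488. Position 3 had 1 at −1 in CESA1 and CESA6, 0.988 in CESA3 and 0.798 in CESA5, but 0 in CESA2, and −2 stayed between 0.196 and 0.486. In both positions the genes separated at −1 and not at −2. At position 4, −1 was 1 in CESA1, 0.704 in CESA2, 0.515 in CESA5 and 0.259 in CESA3, with −2 between 0.334 and 0.534. CESA3, the least reactive there at −1, was the most reactive at −2.

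At position 5, −1 was 1 in CESA1, 0.735 in CESA6, 0.709 in CESA5, 0.501 in CESA2 and 0.324 in CESA3, and CESA3 was also lowest at −2 (0.142) in a range reaching 0.589 in CESA1. At position 6 it was 1 in CESA1, 0.852 in CESA3, 0.744 in CESA2 and 0.401 in CESA6. It was the only CESA6 site below 0.6 at −1. At −2 position 6 ran from 0 in CESA2 to 0.651 in CESA3.

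Positions 7 and 8 show the spread beneath a common exon end. At position 7 all exons ended in AUGAAG, and −1 was 1 in CESA6, 0.65 in CESA5, 0.613 in CESA2, 0.374 in CESA1 and 0.298 in CESA3. The 0.298 of CESA3 equalled the recurring score of its row, and 15.6% of that row had no value. The order at −2 was different, with 1 in CESA2, 0.453 in CESA3, 0.374 in CESA6, 0.366 in CESA1 and 0.0606 in CESA5. At position 8 all exons ended in CAG, and −1 was 0.975 in CESA5, 0.813 in CESA1 and 0.783 in CESA6, but 0.253 in CESA3 and 0 in CESA2. At −2 no gene was high there, with 0.503 in CESA5 and 0.00837 in CESA6 at the ends. The −2 score of CESA2 there, 0.318, equalled the recurring score of its row.

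At position 9 the exons ended in UG, and −1 was 1 in CESA1 and CESA6, 0.737 in CESA5, 0.53 in CESA3 and 0.198 in CESA2. Here −2 was high in the 3 genes of the CESA6 class, with 0.943 in CESA6, 0.933 in CESA5 and 0.71 in CESA2, against 0.432 in CESA1 and 0.318 in CESA3. Among the 9 positions with rows in all 5 genes it was the only one at which the class lay wholly above CESA1 and CESA3 at −2. At position 10, −2 ran from 0.184 in CESA6 to 0.728 in CESA5, and the 0.184 equalled the recurring score of its row. At position 12, which had rows in 3 genes, −1 was 1 in CESA1, 0.473 in CESA2 and 0.342 in CESA5, and −2 was between 0.132 and 0.517.

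At position 13 the exons of CESA2, CESA5 and CESA6 were the same over the 13 nt shown, and their −1 reactivities were 1 in CESA2, 0.683 in CESA6 and 0.425 in CESA5. CESA3 had 1 and CESA1 had 0.247, which equalled the recurring score of its row. At −2 these exon ends gave 0.411 in CESA2, 0 in CESA6 and 0.641 in CESA5, with 0.705 in CESA3 and 0.3 in CESA1. The 3 identical exon ends thus differed in score by more than 0.5 both at −1 and at −2. The CESA2 and CESA6 rows were incomplete, with no value at 24.7% and 15.4% of nucleotides. Both had too few values for a mean of the exon before the intron. In the CESA6 row 14.3% of nucleotides had the top score and 8.44% had 0. The part of these gaps in the spread was not tested. At position 14, −1 was 1 in CESA3, CESA5 and CESA6, 0.452 in CESA1 and 0.21 in CESA2, and −2 stayed between 0.225 and 0.341.

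**Figure D2:**
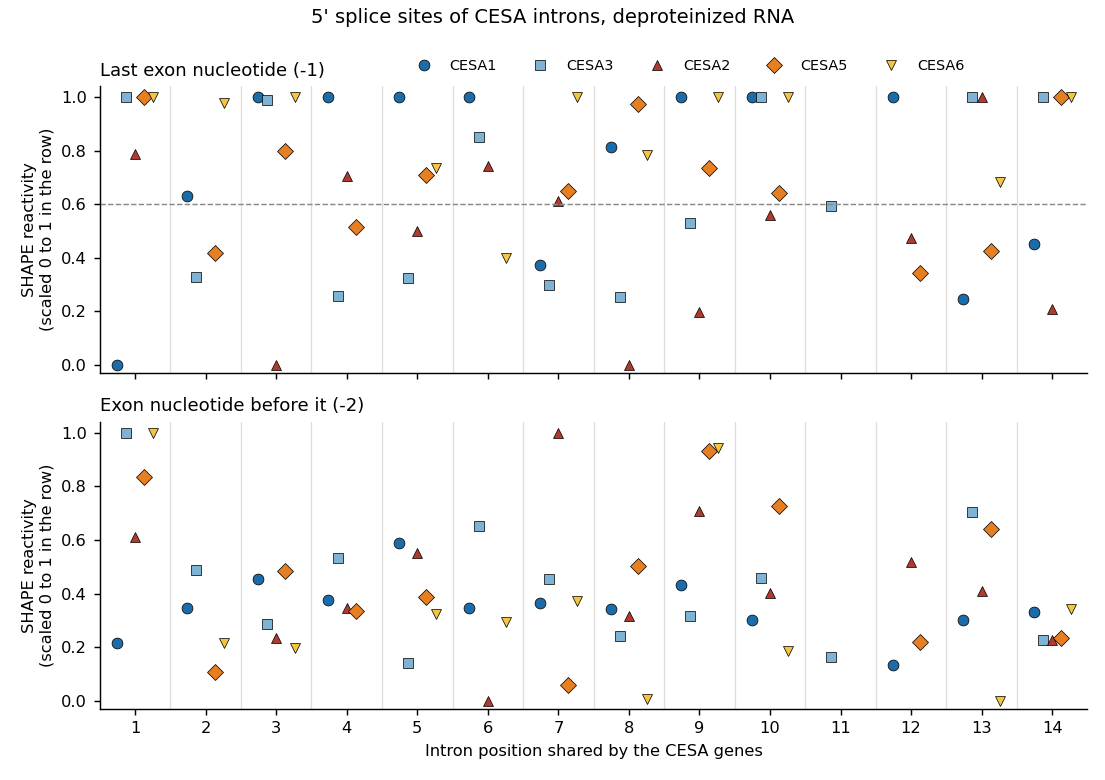
SHAPE reactivity (y axis, 0 to 1 within the row) at −1 (top) and −2 (bottom) of the 5′ss in deproteinized RNA, by intron position shared by the CESA genes (x axis), with 1 point per gene. The dashed line at −1 marks 0.6, and at −1 the genes lie on both sides of it at each of the 13 positions with rows in 3 or more genes.

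Pairs of genes were then compared at −1. Both introns were high in 41 of 111 homologous pairs (36.9%) and in 38.4% of 1376 pairs of non-homologous CESA introns. Exactly 1 of the 2 was high in 61 homologous pairs (55%), against 47.8% of the other pairs. The median difference between the pair at −1 was 0.344 in homologous pairs and 0.317 in the others, so the difference was not smaller at homologous sites.

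Reactivity along the flanking exons gave the same picture. For each pair of introns the 100 exon nucleotides, 50 on each side, were set against each other at the same distance from the splice site. Exon letters were identical at a median of 71% of nucleotides in homologous pairs and 26% in the others, and the correlation of reactivities had a median Pearson r of 0.0645 over 111 homologous pairs (−0.247 to 0.332) and 0.0416 over 1376 others (−0.453 to 0.454). Among 28 homologous pairs with 80% or more identical nucleotides the median r was 0.0153. CESA5 and CESA6, with 86.5% identical exon nucleotides at the median, had a median r of 0.0367 over 10 introns. The 50 nt after the intron lie outside what the study used. On the 5′ss side alone the median r was 0.101 in homologous pairs and 0.0832 in the others. Where an insertion shifts an exon, this comparison sets non-equivalent nucleotides side by side. These correlations are over nucleotides, which are not independent, and share the library and the base composition.

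Within CESA rows the same nucleotides were measured alike where rows overlapped, with r from 0.988 to 1 over the 6 overlaps. Those rows come from the same reads, so this shows only that the scaling kept the order of nucleotides.

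**Figure D3:**
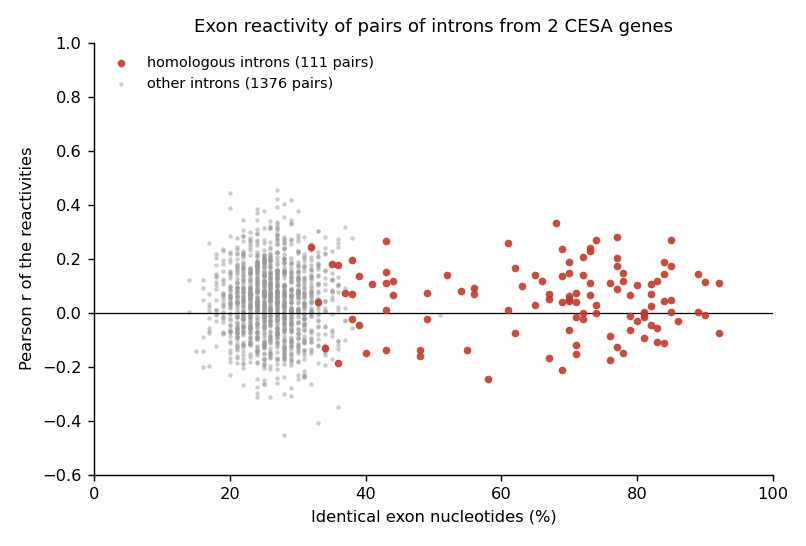
Pearson r of the exon reactivities of 2 introns from different CESA genes (y axis) against the percentage of identical exon nucleotides (x axis) in deproteinized RNA, with 1 point per pair. Homologous pairs (red) have a median r of 0.0645 and other pairs (grey) 0.0416, and the 28 homologous pairs with 80% or more identical nucleotides have a median r of 0.0153.

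The rows with an alternative splice site allowed competing sites to be set side by side. In CESA5 a row began its intron 35 nt upstream of intron 7, at chr5:3075592, inside the annotated exon. The 2 exon ends are shown with −2 and −1 in capitals.
CESA5 annotated 5′ss of intron 7 (chr5:3075614-3075639, plus strand): tggcatgatccAGgtgagatgctttg
CESA5 upstream 5′ss (chr5:3075579-3075604, plus strand): actccttggccCGgtaataacgtgcg
At the annotated site −1 had 0.975 and −2 had 0.503, and at the upstream site −1 had 0.307 and −2 had 0.269. Read from the upstream row, which is scaled over a longer stretch, the annotated site had 0.871 at −1. In either row the annotated 5′ss had the higher score. The −1 score of the upstream site equalled the recurring score in both rows, 0.307 in its own and 0.367 in that of intron 7. What that score stands for is not given, so a lower reactivity of the upstream site cannot be read from it.

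In CESA5 intron 12 a pair of 3′ss lay 5 nt apart, shown with both AGs in capitals.
CESA5 intron 12 (chr5:3077375-3077404, plus strand): tctttcttttggttgcAGattAGcaactat
Per the study's methods the AG of a 3′ss was left out of its reactivity calculation, since stops there may come from spliced or unspliced RNA, yet the deposited rows hold scores at these nucleotides. With that limit, the A of the upstream AG had 0 and that of the downstream AG had 1, while the Gs had 0.377 and 0.362. The 4 nucleotides from −7 to −4 averaged 0.292 before the upstream AG and 0.224 before the downstream AG. For the downstream AG these nucleotides include the upstream AG itself, with its scores of 0 and 0.377. Because of that overlap, a difference in reactivity before the AGs cannot be read from these means.

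At the 3′ss, where U2AF and the last splicing step act, CESA introns lay at the background. The mean at −7 to −4 was below that at −20 to −8 in 42 of 65 CESA introns (64.6%), against 64.1% of all introns. Compared by medians it was 34 of 65 (52.3%), against 48.9% of all. By gene the lower 3′ss end was found in 12 of 14 introns of CESA3, 9 of 13 of CESA2, 8 of 14 of CESA1, 7 of 11 of CESA6 and 6 of 13 of CESA5.

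The exon after the intron was more reactive than the intron in 54 of 63 CESA introns (85.7%), against 82% of all introns. The exon before it was more reactive than the intron in 34 of 61 (55.7%), against 55% of all. Median reactivities were 0.347 before the intron, 0.329 within it and 0.444 after it, and 0.363, 0.357 and 0.439 over all introns. The shares of the CESA genes were thus close to those of all introns on both sides. The study calculated reactivity across the 5′ss and the intron without its last AG. Values at that AG and in the exon after the intron are thus outside what it used. In the plot of mean profiles at the 3′ss these are −2, −1 and all exon positions. Per its methods, reads that start just past the 3′ss may come from spliced or unspliced RNA.

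The branch site, whose adenosine attacks the 5′ss, was searched for as CUNAC or as CUNAU, with a purine at N, in the sense strand with its last A 15 to 50 nt from the intron end. Such a motif lay in 21 of 65 CESA introns (32.3%) and in 24.9% of all introns. The branch A was above its flanking nucleotides in 14 of 21 (66.7%), against 60.7% of all introns with the motif. Its median was 0.524 against 0.318 for the flanks in CESA introns, and 0.535 against 0.358 over all introns with the motif. A wider motif, with any base at N and either C or U to begin with, lay in 57 CESA introns, and the A was above its flanks in 31 of them (54.4%), against 54.8% of all. A motif match is a description and not a mapped branch point.

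CESA1 intron 7 (chr4:15643478-15643555) and CESA2 intron 7 (chr4:18299570-18299718) were the only introns with a row in both conditions. They are at positions 7 and 8, so they are not homologous to each other. Only CESA1 had a value at −1 in both, so a ranking of introns by their change at −1 had 1 member. There −1 had 0.374 in deproteinized RNA and 0.424 in vivo, and −2 had 0.366 and 0.333. The difference at −1 was below 0.3, the size called a change. Over all introns with both values 21.9% were higher by at least that much in deproteinized RNA and 14% were lower.

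In CESA1 intron 7 the reactivity of the intron averaged 0.221 in deproteinized RNA and 0.406 in vivo. Over all introns 55.8% had the higher mean in deproteinized RNA, and this intron was among the rest. Of the last 11 nt of the intron, 0 had a score of 1 and 1 had a score of 0 in deproteinized RNA. In vivo 5 of them had a score of 1, 4 had 0 and 1 had no value. Without these 11 nt the means were 0.225 in deproteinized RNA and 0.385 in vivo. The exon before averaged 0.242 in deproteinized RNA and 0.347 in vivo, and the exon after 0.421 in deproteinized RNA and 0.389 in vivo. The A of its branch motif, 26 nt from the intron end, had 0.534 in deproteinized RNA and 1 in vivo, with flanks of 0.222 and 0.383. It stood above its flanks in both conditions. At −7 to −4 of the 3′ss this intron averaged 0.193 in deproteinized RNA and 0.5 in vivo, below the 0.256 and 0.616 at −20 to −8.

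In CESA2 intron 7, −1 had 0 in deproteinized RNA and no value in vivo, where 39.8% of the row had none. Only 68 of 149 intron nucleotides had an in vivo value, too few for an intron mean under the 50% minimum. The exon after it averaged 0.433 in deproteinized RNA and 0.399 in vivo. Its in vivo mean at −7 to −4 was 0.302, against 0.306 at −20 to −8, so that 2 of 2 CESA introns in vivo were lower next to the 3′ss, as 60.8% of all introns in vivo were. The profiles of the conditions correlated with r = 0.397 over 170 nt in CESA1 and 0.399 over 150 nt in CESA2, against a median of 0.315 over all shared introns with an interquartile range of 0.227 to 0.407. Nucleotides with at least 0.6 in both conditions numbered 5 in CESA1 (of 19 in deproteinized RNA and 20 in vivo) and 13 in CESA2 (of 29 and 24). Scores are scaled separately in each row, so each mean is relative to its own row and condition.

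**Figure D4:**
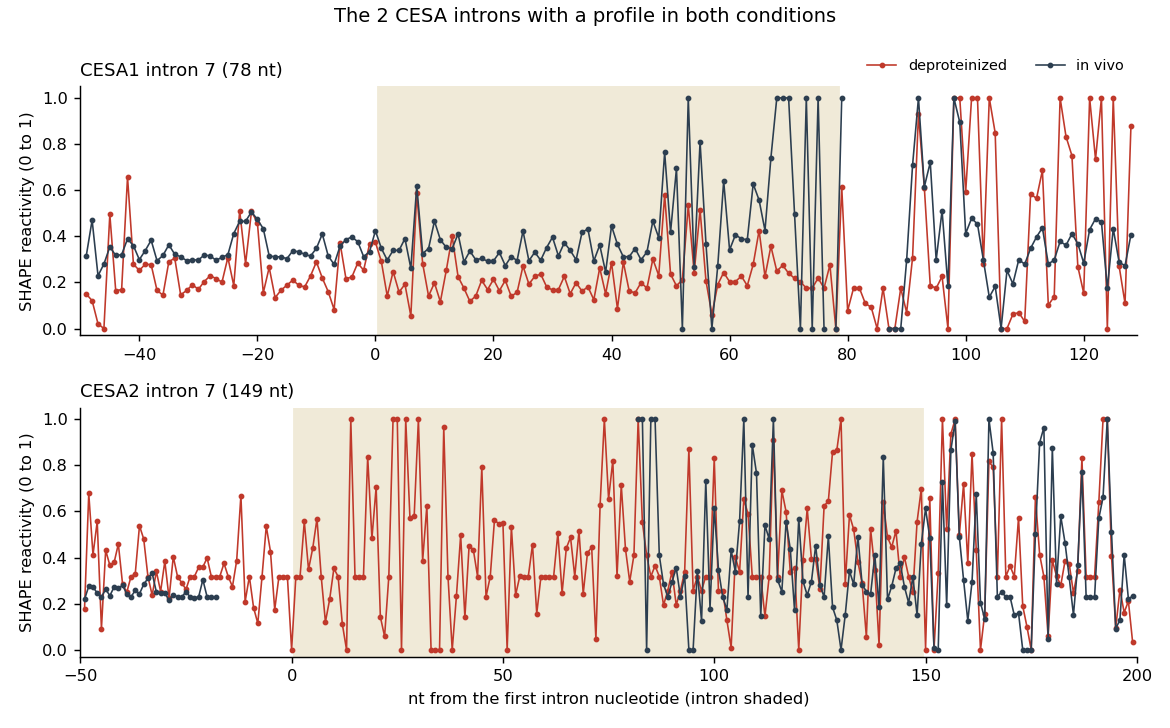
SHAPE reactivity (y axis, 0 to 1) by nucleotide from the first intron nucleotide (x axis) of CESA1 intron 7 and CESA2 intron 7, with deproteinized RNA in red, in vivo in blue and the intron shaded. Gaps are nucleotides with no value; the in vivo line of CESA1 lies above the deproteinized line through most of the intron, with means of 0.221 in deproteinized RNA and 0.406 in vivo.

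Poly(A) windows were present in vivo for CESA1 (2), CESA3 (1), CESA5 (2) and CESA6 (2), and CESA2 had none. Each window holds 100 nt scored from 0 to 2, and the cleavage site was taken at its nucleotide 51, called 0. On the minus strand, which holds CESA1 and CESA3, site coordinates in the study's lists lie outside these windows, so the site of their 3 windows is an assumption. The mean profile over all windows peaked at nucleotide 50 on both strands. The windows of a gene overlapped, with sites 18 nt apart in CESA1, 12 nt in CESA5 and 21 nt in CESA6. Shared nucleotides correlated with r of 0.995 to 1, so the 7 windows hold 4 separate stretches of RNA. Cleavage in plants follows a loosely defined A-rich element upstream of the site. The hexamer AAUAAA, its canonical form, lay in none of the 7 windows on the sense strand and in 12.5% of all windows.

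The region from −28 to −17 was above the rest of the window in 2 of 7 CESA windows (28.6%), against 52.6% of all windows. The region from −4 to +1, across the site, was above the rest in 4 of 7 (57.1%), against 49.1% of all. These 7 windows are too few and too overlapping for either share to be set against the background.

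In CESA1 the window with its site at chr4:15640634 averaged 0.978 at −28 to −17, 0.738 at −4 to +1 and 0.656 in the rest. The window with its site at chr4:15640652 averaged 0.511, 1.18 and 0.679. Of the 4 nucleotides with the top score of 2 at −28 to −17 of the first-named window, 3 lie at −4 to +1 of the other, so the same stretch of RNA counts upstream of the one site and across the other. In CESA3 (site chr5:1530201) the means were 0.941, 0.693 and 0.829.

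In CESA5 the site at chr5:3078262 had means of 0.659, 0.718 and 0.789, and the site at chr5:3078274 had 0.684, 0.853 and 0.847. In CESA6 the site at chr5:25886650 had 0.754, 1.14 and 0.873, and the site at chr5:25886671 had 0.817, 0.856 and 0.86. The upstream region was below the rest in all 4 windows of CESA5 and CESA6, which are 2 stretches of RNA, and in the second CESA1 window, and above it in CESA3 and the first CESA1 window. Over all windows the medians were 0.79 at −28 to −17, 0.777 at −4 to +1 and 0.773 in the rest. The reactivity at the site itself was 1.61 in the first CESA6 window, 0.89 in the first CESA5 window, and 0.14 to 0.743 in the other 5, with a median of 0.672 over all windows. An intermediate score also recurred within these windows, at 8% to 24% of nucleotides. The score at the CESA3 site, 0.71, equalled the recurring score of its window, so what it says of that site is not known.

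**Figure D5:**
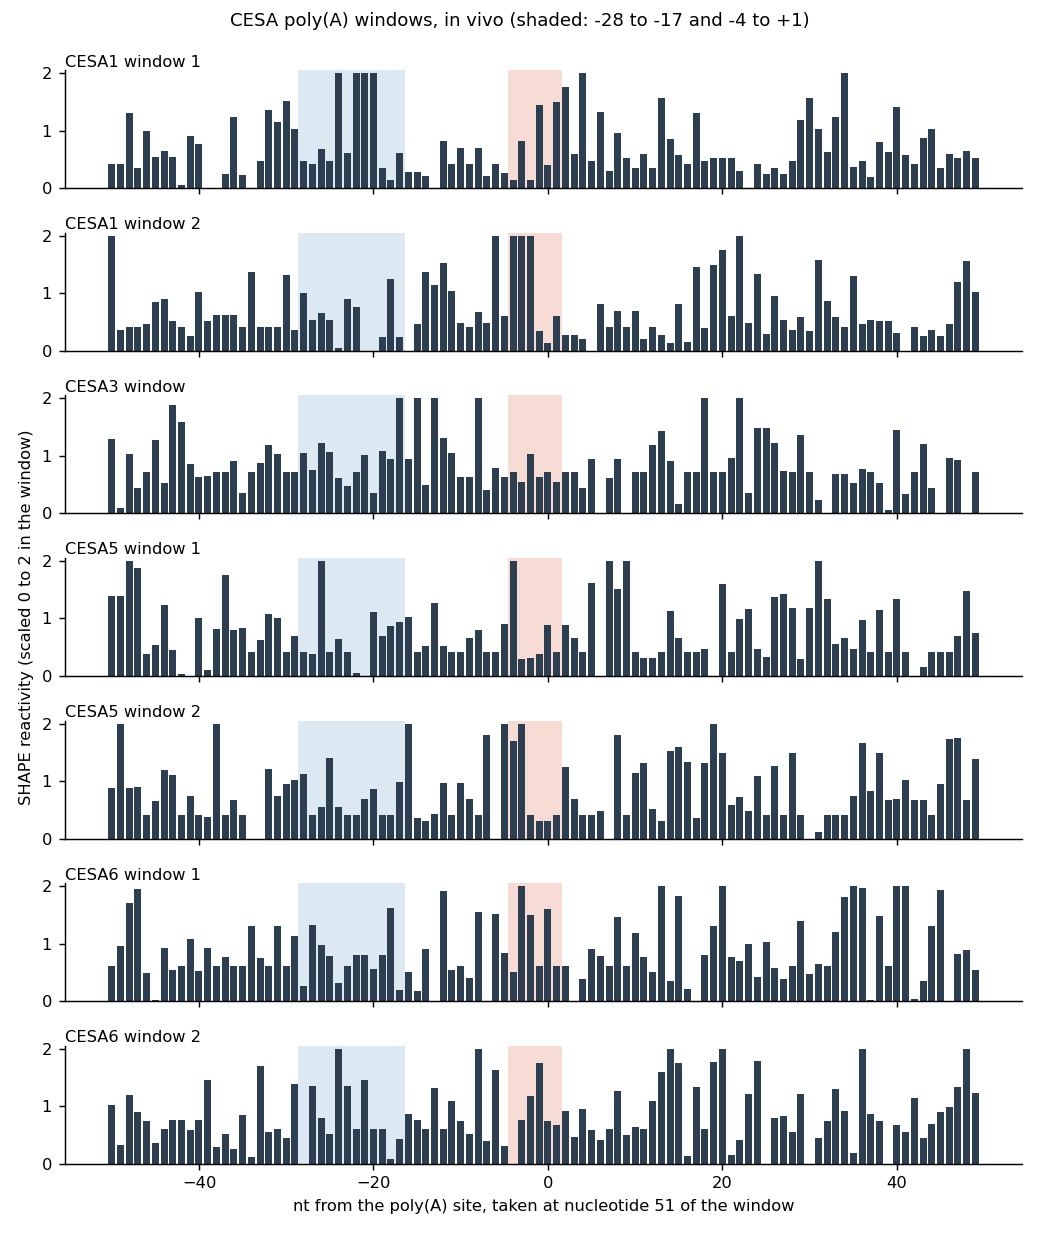
SHAPE reactivity in vivo (y axis, 0 to 2 within the window) by nucleotide from the poly(A) site (x axis) in the 7 CESA windows, with 1 bar per nucleotide and the regions −28 to −17 (blue) and −4 to +1 (pink) shaded. The reactive cluster of the first CESA1 window lies within −28 to −17, and that of the second runs from upstream of −4 into −4 to +1.

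Other genes of cellulose synthesis were counted from a list of 14. In deproteinized RNA, rows were present for 6 of them, and 14 of 30 sites (46.7%) were high at −1, close to the 49.2% of all sites. In vivo 5 had rows and 5 of 13 sites (38.5%) were high, against 41.5% of all sites in vivo. By gene in deproteinized RNA, CC1, a companion protein of the complex, had 3 of 3 high sites, and the endoglucanase KOR1 had 3 of 6. COB, a wall-oriented GPI-anchored protein, had 3 of 7, CSI1, which ties the complex to microtubules, had 3 of 8, CTL1, a chitinase-like protein, had 2 of 5, and CC2 had 0 of 1. In vivo COB had 2 of 6, CSI3 1 of 2, CC1 1 of 1, CC2 1 of 2 and STL1 0 of 2. The secondary wall synthases CESA4, CESA7 and CESA8, as well as CESA9, CESA10 and STL2, had no rows in any of the 4 tables.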

How the data were processed

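Per the methods and processing notes, the authors checked reads with FastQC 0.11.5, trimmed them with Cutadapt 1.14, mapped them with HISAT2 2.1.0 to TAIR10 with AtRTD2 isoforms and kept unique reads. They merged 2 biological replicates, counted RT-stops in (+) and (−)SHAPE libraries and normalized the reactivity. For splicing, split reads were removed, so spliced molecules do not contribute reads across a junction. The deposited values are scores with no unit, scaled within each row. Depth per row or nucleotide is not given in the sources used here, so no counting error could be given.

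Rows were chosen by gene identifier, placed on TAIR10.1 and read 5′ to 3′ of the transcript. A region mean needed values at 50% of its nucleotides. Proteins were translated from the RefSeq annotation and aligned with MAFFT 7.526, and introns within 1 alignment column and of equal phase were taken as homologous. Python 3.11.15 with NumPy 2.4.6 did the arithmetic, SciPy 1.17.1 the correlations and Matplotlib 3.10.9 the plots, and the measures were tested on simulated data.

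The members and lists were chosen with earlier results of these data known. Described one by one were all 5 genes, every intron position with rows in 3 or more genes, the introns with the 3 largest changes at −1 in each direction, rows sharing a splice site, and every poly(A) window. For 1 pair of rows sharing a splice site the comparison is not reported here. Alternatives covered scores of 0 or the recurring score as missing, all rows, thresholds, flanks, medians, introns in both conditions, a wider branch motif, the poly(A) site at nucleotide 50, rank correlation and each gene left out. The splits by recurring score, by consensus match and at the end of CESA1 intron 7, and the comparison of pairs at −1, were chosen after seeing the data.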

Additional observations from a re-analysis of the deposited data

How the results depend on the processing

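No paired analysis was possible because each condition is 1 merged profile and the labels number no replicates. In the deproteinized condition the count of high −1 sites stayed between 26 (the mean of −2 and −1, 40% of sites, against 36.7% of all) and 44 (a threshold of 0.5, 67.7%, against 55.1% of all), and the count above the flanks between 42 and 56, except over introns in both conditions, where 0 and 1 of 2 introns remained. The wider branch motif gave 31 introns with the branch A above its flanks, since 57 hold it. In vivo, the 3′ss count of 2 introns was 1 by medians, 1 with scores of 0 missing, and 1 without CESA1 or without CESA2. The median correlation between conditions over the 2 shared introns was 0.398 by Pearson, 0.472 by Spearman and 0.43 with the recurring score missing. For homologous exons the median correlation was 0.0172 by Spearman and 0.101 on the 5′ss side alone. The poly(A) counts were the same with the site at nucleotide 50. Depth per row is unknown, and with 1 merged profile per condition these tables give no spread between plants.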
